A study of Mus musculus with 4 samples.

Results

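H3K9ac regions paired with genes of the hypoxia response and of vascular tone differed between aorta macrophages of mice exposed to chronic intermittent hypoxia (CIH) and of room air controls (RA). H3K9ac is an acetylation of a lysine in the tail of histone H3 that marks open chromatin, most often at active gene starts. The genes were Arnt, Eno1, Mxi1, Edn2 and Ddah1, taken by name from the study's table of selected differential H3K9ac peaks. Each gene was paired there with 1 peak, and each of the 5 peaks was found by name in the deposited list of 20943 differential H3K9ac peaks. The study kept in that table the peaks with the most reads, so the 5 peaks were drawn from strong peaks, and the part of the table used here held 483 of them.

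The mice were C57BL/6J on both sides of the comparison. CIH mice breathed 6.1% oxygen for 90 seconds in turn with 21% oxygen for 90 seconds through the 12 hours of light, for 20 weeks, while RA mice were kept at 21% oxygen. Cells were selected from digested aortas with magnetic beads against CD11b, a surface protein of macrophages that other myeloid cells also carry. Chromatin of these cells was immunoprecipitated for H3K9ac or for the repressive mark H3K27me3, giving 4 libraries, 1 for each mark and exposure, and no input library. With 1 library per group there was no replicate error, and no p-value is given. A list of differential peaks holds no level of a mark, so the cell type could not be checked against its markers. Of 21 marker genes of macrophages, endothelium, smooth muscle, fibroblasts and T cells, only Mertk was paired with a peak in the part of the table used here. Mertk is a receptor by which macrophages clear dying cells, and its peak was higher in RA. That part lies mostly on chromosomes 2, 3 and 4 and pairs 1.74% of 27025 RefSeq genes with a peak. The lack of the other markers there says nothing of the cell type.

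In low oxygen the HIF alpha subunits escape degradation, pair with the protein encoded by Arnt and bind DNA at short motifs that contain ACGTG or GCGTG. Genes switched on in this way include those of glycolysis, to which Eno1 belongs with its enzyme enolase, and Mxi1, which encodes a repressor that binds MAX and opposes MYC. Edn2 encodes endothelin 2, a peptide that constricts vessels. Ddah1 encodes an enzyme that degrades asymmetric dimethylarginine, an inhibitor of nitric oxide synthesis, the gas that relaxes vessels.

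Of the 5 peaks, 4 were higher in CIH, those paired with Arnt, Eno1, Edn2 and Ddah1, and the peak paired with Mxi1 was higher in RA. Over the whole deposited list 45.4% of the peaks were higher in CIH, and 48.9% of those in the selected table. With 5 peaks the share higher in CIH, 80.0%, had an exact Clopper-Pearson 95% interval from 28.4 to 99.5%, which holds both of these backgrounds and covers counting error only. All 5 peaks were wider than the median of the list, though the Mxi1 and Arnt peaks were narrower than that of the selected table. Of the 5, 3 directly touched a peak of the other direction, beside 36.2% of the peaks of the list and 40.0% of those of the table.

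The sequences of the peaks are shown for where the bases held here fall against gene starts, and for the ACGTG and GCGTG motifs bound by HIF. GCGTG was in the held bases of the Arnt, Eno1 and Mxi1 peaks, ACGTG in those of Edn2 and neither in those of Ddah1, while 54.8% of the table's peaks of the same held length had at least 1 of them. Up to 399 bases from the left end of each peak were held, and they read along the plus strand of mm9. RefSeq promoter windows of GRCm38.p6, from 250 bases before a gene start to 50 after it, were matched to them by exact runs of at least 30 bases. A gene start was found in the held bases of 83 of the 483 peaks (17.2%), and in those of 2 of the 5 peaks described here. Each peak is printed below from its deposited position, in lower case, with ACGTG and GCGTG in capitals on whichever strand they lie, so that GCGTG on the other strand reads CACGC.

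The Arnt peak is shown first, since it holds the gene start, at its base 62. The printed bases lie at chr3:95238251-95238550 of mm9, plus strand.
Arnt peak, bases 1 to 300: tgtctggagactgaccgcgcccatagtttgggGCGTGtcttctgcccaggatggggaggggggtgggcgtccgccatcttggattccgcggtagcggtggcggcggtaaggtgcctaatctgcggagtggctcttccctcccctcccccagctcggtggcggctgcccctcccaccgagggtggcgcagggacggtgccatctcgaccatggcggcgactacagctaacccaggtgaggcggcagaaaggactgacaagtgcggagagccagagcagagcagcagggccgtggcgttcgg

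The peak paired with Eno1 is shown from base 91 to base 340, at chr4:149655791-149656040 of mm9, plus strand. It holds a gene start too, at base 325, but that start is the one of Rere, with which the table also pairs the peak.
Eno1 and Rere peak, bases 91 to 340: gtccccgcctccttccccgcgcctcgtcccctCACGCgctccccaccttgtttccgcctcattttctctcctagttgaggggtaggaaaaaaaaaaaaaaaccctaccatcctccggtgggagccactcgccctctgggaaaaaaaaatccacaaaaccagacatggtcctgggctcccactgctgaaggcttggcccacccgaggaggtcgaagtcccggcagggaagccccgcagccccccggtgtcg

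The Mxi1 peak is shown from base 100 to base 399, at chr19:53388100-53388399 of mm9, plus strand. There lie 3 of the 4 GCGTG motifs in its held bases.
Mxi1 peak, bases 100 to 399: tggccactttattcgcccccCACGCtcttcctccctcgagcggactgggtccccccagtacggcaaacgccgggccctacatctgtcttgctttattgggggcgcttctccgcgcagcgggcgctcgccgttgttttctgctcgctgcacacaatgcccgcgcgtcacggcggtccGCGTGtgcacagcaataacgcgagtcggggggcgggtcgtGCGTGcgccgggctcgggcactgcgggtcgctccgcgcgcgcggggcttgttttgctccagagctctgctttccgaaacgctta

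The Edn2 peak, at chr4:119820601-119820900 of mm9, plus strand, is shown for its 2 copies of ACGTG.
Edn2 peak, bases 1 to 300: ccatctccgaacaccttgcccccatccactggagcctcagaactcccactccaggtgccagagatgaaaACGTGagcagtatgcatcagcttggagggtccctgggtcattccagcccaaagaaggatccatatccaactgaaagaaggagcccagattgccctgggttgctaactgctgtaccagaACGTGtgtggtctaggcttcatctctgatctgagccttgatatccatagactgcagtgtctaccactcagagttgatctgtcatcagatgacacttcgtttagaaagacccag

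The Ddah1 peak, at chr3:145314351-145314650 of mm9, plus strand, is shown for contrast, since its held bases had neither motif.
Ddah1 peak, bases 1 to 300: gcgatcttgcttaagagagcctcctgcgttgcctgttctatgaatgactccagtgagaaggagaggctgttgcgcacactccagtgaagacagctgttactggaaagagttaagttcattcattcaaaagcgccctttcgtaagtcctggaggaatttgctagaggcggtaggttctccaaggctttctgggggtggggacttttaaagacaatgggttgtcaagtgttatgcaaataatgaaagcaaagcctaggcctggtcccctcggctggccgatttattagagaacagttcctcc

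Arnt, which encodes the subunit that pairs with HIF alpha, had a peak of 850 bp on chromosome 3, from 95238251 to 95239100, that was higher in CIH. The start of Arnt lay 62 bases into this peak. The table also pairs it with Gm4349, a transcribed pseudogene, whose start was not among the matches in the held bases. A peak of 200 bp, from 95238051 to 95238250, touched it on the left and was higher in RA. The Arnt promoter window of RefSeq therefore began before the peak: its last 111 bases were identical to the first 111 of the peak, and the other 189 come before the peak's first base. In mm9 the 200 bases directly before the peak are those of the touching peak higher in RA, whose sequence was not held, so these 189 bases were not compared with it. The window is printed with the bases inside the peak higher in CIH in capitals. It lies at chr3:95434140-95434439 of GRCm38.p6, plus strand.
Arnt promoter window: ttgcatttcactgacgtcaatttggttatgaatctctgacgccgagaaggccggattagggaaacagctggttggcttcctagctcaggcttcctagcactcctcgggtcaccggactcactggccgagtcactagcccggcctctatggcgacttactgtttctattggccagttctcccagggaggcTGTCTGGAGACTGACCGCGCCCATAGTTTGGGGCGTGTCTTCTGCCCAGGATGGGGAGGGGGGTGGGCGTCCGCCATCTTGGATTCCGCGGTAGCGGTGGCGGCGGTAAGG

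The border between the directions thus lay a short distance before the Arnt start. As 1 stretch of 1050 bp, the pair was higher in CIH over 81.0% of its bases. A further peak, of 400 bp and higher in RA, lay 22.5 kb to the right of the Arnt peak. Beyond 50 kb, the next peaks were 118 kb to the left and 91.4 kb to the right, and both were higher in RA. The nearest other peak higher in CIH was 150800 bp away.

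Eno1, the gene of the glycolytic enzyme enolase, was paired with a peak of 1500 bp on chromosome 4, from 149655701 to 149657200, higher in CIH. The held bases matched the promoter window of Rere, which encodes a coregulator of nuclear receptors, with 269 identical bases in a row, and matched no window of Eno1. In GRCm38.p6 the starts of Eno1 lie 44.7 to 45.2 kb before that of Rere. The gene start found in this peak was thus that of Rere and not that of Eno1. Another peak higher in CIH, of 600 bp from 149655051 to 149655650, ended 50 bp before it. Of the 20943 deposited peaks, 60 (0.286%) had a neighbour of their own direction at 50 bp or less, while 36.2% touched a peak of the other direction. How far the peak calling sets these shares was not tested, so the closeness is not read as a trait of this pair. The peak of 600 bp was the only other peak within 50 kb on the left, the side on which Eno1 lies. The remaining neighbour within 50 kb was a peak of 400 bp, higher in RA, 36.8 kb to the right.

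Mxi1, the gene of the MYC antagonist, had the narrowest of the 5 peaks and the only one higher in RA. It spanned 600 bp on chromosome 19, from 53388001 to 53388600. A peak of 350 bp, from 53387651 to 53388000, touched it on the left and was higher in CIH, so that 36.8% of the joint stretch of 950 bp was higher in CIH. The 3 promoter windows of Mxi1 in RefSeq had no match in the held bases, the first 399 of the 600 bp. Of the deposited peaks that were also 600 bp wide, 550 of 908 were higher in CIH (60.6%). The Mxi1 peak was thus on the less common side for its width in the list. Among the 600 bp peaks of the selected table used here, 1 was higher in CIH and 17 in RA, so there its direction was the common one. Mxi1 had the most neighbours, 4 within 50 kb, all on its left. Apart from the touching peak they were a touching pair of 250 and 150 bp, higher in CIH and in RA, at 39.5 and 39.3 kb, and a peak of 350 bp higher in RA at 31.1 kb.

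Edn2, the endothelin gene, was paired with a peak of 1250 bp on chromosome 4, from 119820601 to 119821850, higher in CIH. A peak of 400 bp, from 119821851 to 119822250, touched it on the right and was higher in RA. The joint stretch of 1650 bp was higher in CIH over 75.8% of its length. The other neighbour, of 300 bp and higher in RA, lay 33.0 kb to the left. The next peaks beyond 50 kb were 475 kb to the left and 87.3 kb to the right. No RefSeq gene start was found in the held bases, the first 399 of the 1250 bp. The distance to the Edn2 start in mm9 was not measured.

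Ddah1, the gene of the enzyme that removes the nitric oxide synthase inhibitor, had the widest peak, 2450 bp on chromosome 3 from 145314351 to 145316800, higher in CIH. Only 65 of the 20943 deposited peaks were wider, 6 of them among the 1249 on chromosome 3. It was also the most isolated of the 5. Its nearest neighbours were a touching pair 49.2 and 49.6 kb to the right, of 400 bp higher in CIH and of 450 bp higher in RA, and the next peak on the left was 74.8 kb away. Of all deposited peaks, 74.7% had a nearest neighbour at this distance or closer. No RefSeq start matched the held bases, which left 2051 bp of the peak unread.

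**Figure D1:**
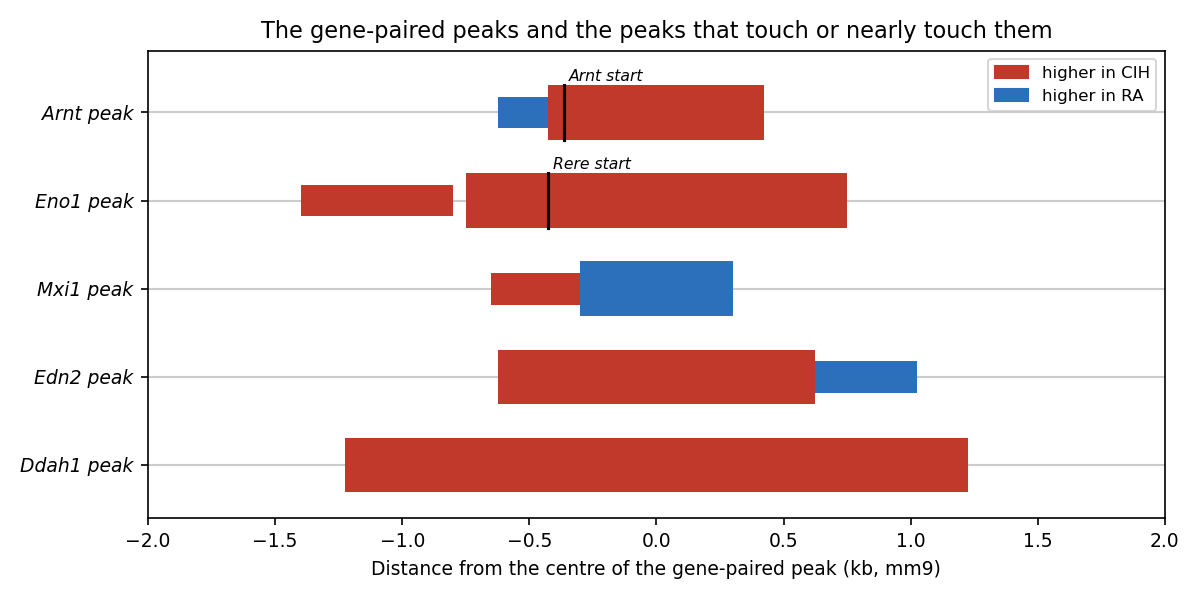
H3K9ac differential peaks (boxes, red higher in CIH and blue higher in RA) against distance in kb from the centre of each of the 5 gene-paired peaks (tall boxes), with black lines at gene starts found in the bases held. The Arnt, Mxi1 and Edn2 peaks each touch a narrower peak of the other color. The Eno1 peak holds the start of Rere and has a red peak 50 bp to its left. No other peak lies beside the Ddah1 peak in the range drawn, its nearest neighbour being 49.2 kb away.

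The 3 touching pairs were at Arnt, Mxi1 and Edn2. In each pair the gene-paired peak was the wider, by 4.25 times at Arnt, 1.71 times at Mxi1 and 3.12 times at Edn2. The gene-paired peaks were drawn from strong peaks, and no background was counted for this. The 2 peaks of a pair were called separately, in steps of 50 bp, and the list does not give the level on either side of the border.

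Within 50 kb the 5 peaks had 12 neighbours in all, of which 4 were higher in CIH and 8 in RA. Of all neighbours within 50 kb of any deposited peak, 49.3% were higher in CIH. The 4 peaks higher in CIH had 8 neighbours, of which 2 were higher in CIH, beside 41.8% for the neighbours of all deposited peaks higher in CIH. The Mxi1 peak had 2 of its 4 neighbours higher in CIH, beside 56.6% for the neighbours of peaks higher in RA. The exact 95% interval of 4 in 12 ran from 9.92 to 65.1% and holds 49.3%. That of 2 in 8 ran from 3.19 to 65.1% and holds 41.8%. Both take the neighbours as independent, though some touch the gene-paired peak or each other. No departure from these backgrounds was detectable with this number of peaks. All 12 neighbours were narrower than the peak they flanked, from 150 to 600 bp with a median of 375 bp. The share of narrower neighbours over all deposited peaks was not counted. The flanked peaks came from the selected table, with a median width of 1050 bp against 450 bp over the list. None of the 12 neighbours was in the part of that table used here, so no gene is paired with them. The 4 loci other than Mxi1 had 2 neighbours each, which is the median over all deposited peaks, and 68.3% of peaks had 2 or fewer.

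**Figure D2:**
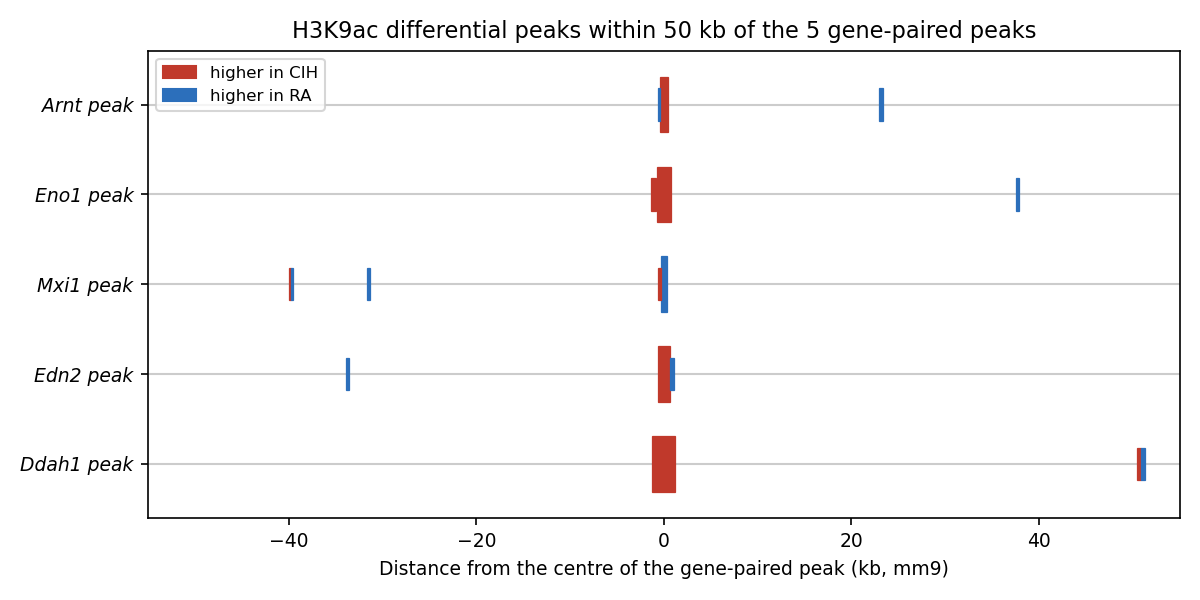
H3K9ac differential peaks within 50 kb of the 5 gene-paired peaks (tall boxes at 0), drawn to scale in kb from the centre of each, red for higher in CIH and blue for higher in RA. Of the 12 short boxes, 8 are blue, and the Ddah1 peak has none nearer than 49.2 kb.

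In width the 5 peaks ran from 600 bp at Mxi1 over 850 bp at Arnt, 1250 bp at Edn2 and 1500 bp at Eno1 to 2450 bp at Ddah1, and covered 6650 bp together. Their median of 1250 bp compares with 450 bp over the list. As a share of all deposited peaks that were as wide or narrower, Mxi1 stood at 69.3%, Arnt at 83.4%, Edn2 at 94.1%, Eno1 at 97.0% and Ddah1 at 99.7%. Against the selected table, which held peaks of high read number, the same shares were 11.8, 30.8, 65.2, 77.8 and 98.3%. The Mxi1 and Arnt peaks were thus on the narrow side of the table. Among deposited peaks of their own direction the shares were 84.9, 70.8, 88.5, 93.9 and 99.3%, in the same order. Within the table the median width was 1400 bp for peaks higher in CIH and 850 bp for those higher in RA. The Edn2 peak was thus also narrower than the table's median for its direction. Wide peaks of the list were mostly higher in CIH. Of the peaks exactly as wide as the Arnt peak 67.2% were higher in CIH (318 of 473), as wide as the Edn2 peak 85.7% (144 of 168), as wide as the Eno1 peak 85.0% (68 of 80) and as wide as the Ddah1 peak 84.6% (11 of 13). In the list, the direction of these 4 peaks was thus the more common one for their width. Among peaks of the selected table used here this held at the widths of Edn2 (12 higher in CIH, 7 in RA), Eno1 (10 and 1) and Ddah1 (2 and 1). It did not hold at the width of the Arnt peak, where 3 were higher in CIH and 18 in RA.

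**Figure D3:**
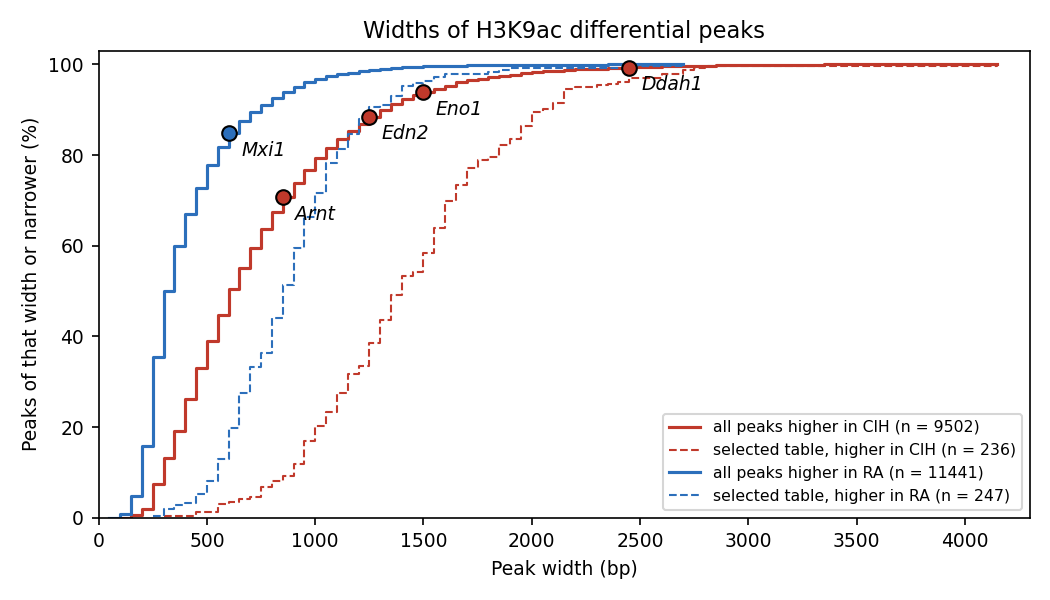
Share of H3K9ac differential peaks (vertical axis, %) that are as wide as or narrower than a given width (horizontal axis, bp), for all deposited peaks (solid) and those of the selected table (dashed), red for higher in CIH and blue for higher in RA, with the 5 gene-paired peaks as points on the solid curve of their direction. The points run from 600 bp for Mxi1 to 2450 bp for Ddah1.

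The 5 peaks fell into GC-rich and less GC-rich sequence. The held bases of the Arnt, Mxi1 and Eno1 peaks had a GC content of 67.7, 65.9 and 65.6%, while those of Edn2 and Ddah1 both had 50.6%. The median over 482 peaks of the table was 53.5%, with 80% of them between 40.1 and 69.7%. CpG dinucleotides, which are frequent at many gene starts, were measured as observed over expected from the C and G content. This ratio was 1.07 for Mxi1, higher than in nearly all peaks of the table (percentile 97.9), 0.873 for Eno1 and 0.682 for Arnt. It was 0.456 for Ddah1 and 0.199 for Edn2, beside a median of 0.551. The 2 peaks in which a gene start was found were among the 3 GC-rich ones. For the Eno1 peak only 343 of the 399 bases were called.

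**Figure D4:**
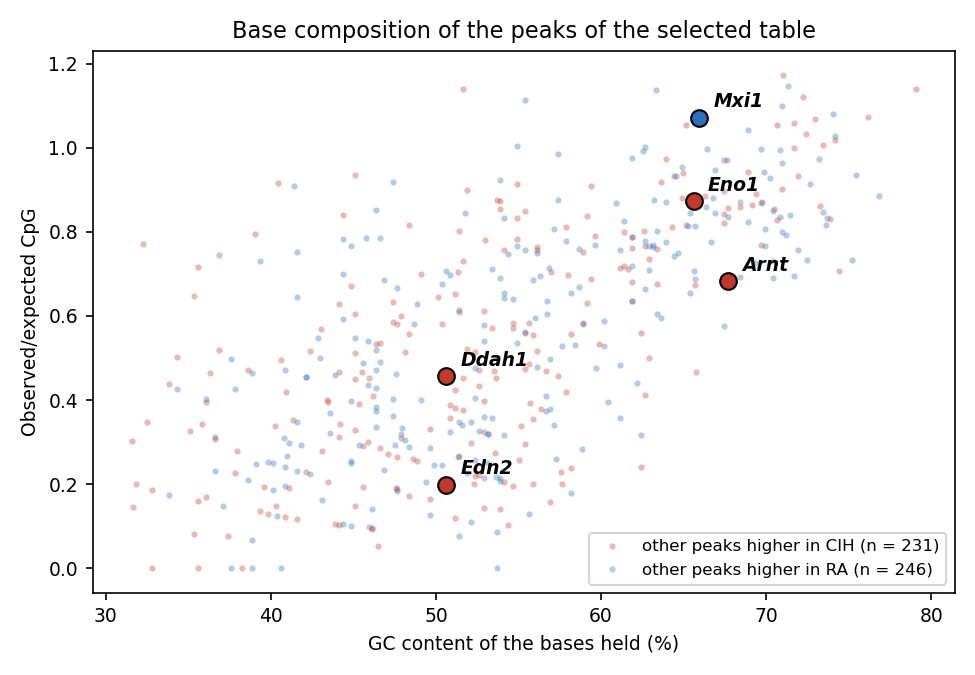
Observed over expected CpG (vertical axis) against GC content in % (horizontal axis) of the bases held of 482 peaks of the selected table, red for higher in CIH and blue for higher in RA, with the 5 gene-paired peaks as large points. Mxi1, Eno1 and Arnt lie at 65.6 to 67.7% GC, and Edn2 and Ddah1 at 50.6%.

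ACGTG or GCGTG, the core that HIF binds, was present in the held bases of 4 of the 5 peaks, beside the background of 54.8%, counted over the 473 peaks of the table with the same number of bases held. By direction, the share was 53.8% for CIH and 55.6% for RA. Mxi1 had 4 copies of GCGTG, Arnt and Eno1 had 1 each, and Edn2 had 2 copies of ACGTG. In the Arnt peak the motif began 29 bases before the Arnt start, and in the peak paired with Eno1 it began 202 bases before the Rere start. ACGTG alone was in 27.9% of the peaks of the table and GCGTG alone in 39.7%. CACGTG, the motif of MYC, MAX and MXI1, contains ACGTG. It was found in the held bases of none of the 5 peaks and in 9.09% of the table. TGANTCA, the motif of AP-1, was also in the held bases of none of them and in 9.94% of the table. GAGGAA, part of the motif of the macrophage factor PU.1, was in the Ddah1 and Mxi1 peaks and in 34.0% of the table. GGGCGG, bound by SP1 and related factors, was in the Mxi1 and Eno1 peaks and in 35.3% of the table. Only the held bases were searched, on both strands, and a match is a run of letters, not a bound site.

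The promoter windows of the genes themselves were also searched in RefSeq, where all 5 genes were matched. GCGTG was present once in the windows of Arnt, Ddah1 and Edn2, and 2 times in each of the 3 windows of Eno1, while 2 of the 3 windows of Mxi1 held ACGTG once. Of all 32851 promoter windows 43.8% held ACGTG or GCGTG. This background counts windows and not genes, and some windows of Eno1 and of Mxi1 overlap, so their copies are not all separate. Among the windows of the 5 genes, only that of Arnt matched held bases of the 5 peaks.

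The deposited list of H3K27me3, the mark of repressed chromatin, held 146 differential peaks, and 0.759% of all deposited H3K9ac peaks had one within 50 kb. None of the 5 peaks did, which with so low a background says nothing particular of them. The nearest was 397 kb from the Edn2 peak and higher in RA. From the Ddah1, Arnt and Eno1 peaks the nearest were 4720, 4260 and 9340 kb away, and the list had none on chromosome 19, where Mxi1 lies. Regions that carry H3K27me3 equally in both exposures are not in such a list.

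Other genes of the same pathways were looked up in the part of the table used here, which follows the order of peak names and lies mostly on chromosomes 2, 3 and 4. Of the 27025 genes with a RefSeq promoter window, 1.74% were paired with an H3K9ac peak there and 0.392% with a peak in the part of the H3K27me3 table used here. Of 73 genes of HIF signalling, glycolysis, the MYC and MAX network, endothelin and nitric oxide, 6 were paired with an H3K9ac peak, the 5 described above, which were taken from the table itself, and Mga. Mga encodes a MAX partner of the MYC network, like Mxi1, and its peak of 1300 bp on chromosome 2, from 119722651 to 119723950, was higher in RA, as was that of Mxi1. None of the 73 genes was paired with an H3K27me3 peak, which does not set them apart from that background. As the rest of the H3K9ac table was not used here, a gene without a pairing may still have a peak in the deposited list.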

How the data were processed

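ChIP-Seq libraries of H3K9ac and H3K27me3 from aorta macrophages of CIH and RA mice, 1 for each mark and exposure and none of input, were analysed by the authors. The submitters' processing notes name Trimmomatic 0.32, BWA 0.7.12, SAMtools 1.2, Picard 1.121, bedtools 2.23.0, MACS2 2.1.0 and the build mm9. For each mark the authors deposited a list of regions that differed between exposures, whose score is 1000 in every row and was not used. Read totals per library and counts per peak were not used here, so depth sets no interval. The sign was read as the higher exposure from the study's tables, where all 483 H3K9ac and 117 H3K27me3 peaks used here had the same name and position as in the lists, and where the minus sign stood for CIH and the plus sign for RA throughout.

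Positions, widths, directions and gaps from edge to edge were computed with Python 3.11.15, pandas 2.3.3 and scipy 1.17.1, in code tested on simulated data. Gene pairings and sequences, but no values, were taken from the tables. In all 162 promoter matches, the matched strand was that of the gene, so the held sequences read along the plus strand. No test was run. Genes named were the 5, those paired with their peaks or neighbours, and members of lists. These genes and lists were chosen with earlier results of these data known.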

Additional observations from a re-analysis of the deposited data

How the results depend on the processing

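With touching peaks merged, each with the direction of most of its bases, 4 of the 5 were again higher in CIH. The background share higher in CIH, 45.4% over the list, was 71.6% among peaks of at least 600 bp, 48.9% in the selected table and 47.4% with touching peaks merged. The neighbours numbered 4 within 10 kb and also 4 within 20 kb, 2 of them higher in CIH, and 18 within 100 kb, 7 of them higher in CIH, with 10 when measured from centre to centre. The median width stood at 94.1% of the list, at 65.2% of the selected table and at 93.0% with touching peaks merged. H3K27me3 peaks numbered 0 within 100 kb and 1 within 500 kb. In the first 250 bases, 4 of the 5 peaks again held a HIF core motif, beside 38.9% of the table in the same window, and GC contents ran from 46.8 to 67.6%. No paired analysis was possible because each group has 1 library. Read counts were not used here, so no error is given for any difference between exposures.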

Other observations

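Among the 83 peaks of the selected table in which a RefSeq gene start was found, the gene of that start was among the genes the table pairs with the peak in 60 (72.3%). In 25 of these 60 the table paired a further gene with the peak, as it pairs Eno1 with the peak at the start of Rere and Gm4349 with the peak at the start of Arnt.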
